A study of Mus musculus with 6 samples.

Results

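The genes described here are 56 genes of DNA replication, listed by name and running from the marking of origins to the work at the fork. All 56 had a probe set of their own on the array, so 56 of the 19938 genes tested are covered. They were measured in mouse embryonic stem (ES) cells that had lost Scc1 (Rad21), the subunit that closes the cohesin ring, and in control cells. The cells were female ES cells of a mixed C57BL/129 background, derived and grown in N2B27 medium with 2i and LIF on laminin. Cells of either genotype had ERT2-Cre, which 4-hydroxytamoxifen (4-OHT) lets into the nucleus, and all received 4-OHT for 24 h, at 80 nM in the sample labels (the design text gives the unit as mM). In 3 samples both Scc1 alleles were lox/lox, so that Cre can excise them, and in 3 samples both were wt/wt. The design text calls the 3 samples of a genotype biological replicates, and whether a genotype was 1 clone is not given in the sources used here. No sample without 4-OHT entered the comparison, so the loss of Scc1 and any earlier difference between the lines cannot be told apart.

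Replication begins when the origin recognition complex, Cdc6 and Cdt1 load the ring of Mcm2 to Mcm7 onto DNA in G1, a step called licensing. In S phase the kinase Cdc7 with Dbf4 lets Cdc45 and the GINS complex join that ring, which then unwinds DNA ahead of the polymerases, the sliding clamp and the enzymes that join Okazaki fragments. Many of these genes are transcribed at the G1/S transition under E2F factors, and ES cells, which spend much of their cycle in S phase, express them strongly. Cohesin holds the sister chromatids together after the fork has passed.

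All values are log2 expression values of the authors' RMA processing, on 1 array per sample, where 1 unit is a doubling, and a change is lox/lox minus wt/wt. Array medians ran from 4.85 to 4.94, and array pairs correlated at 0.989 to 0.995. Here and below, the 3 values of a genotype are given in the order of replicates 1, 2 and 3. Rad21 stood at 10.05, 9.99 and 10.01 on the wt/wt arrays and at 6.08, 6.06 and 6.14 on the lox/lox arrays, so each array matched its genotype. Of 8 ES cell markers, 8 lay above the median of all array values (4.90) in wt/wt cells. In lox/lox cells 4 were lower and 0 higher at an adjusted p under 0.05 in limma, beside 3.61% and 2.55% of all genes tested. The 4 were Klf4 (-1.23), Sox2 (-0.48), Nanog (-0.55) and Esrrb (-0.34). Of the 8 changes 7 were negative and 1 was positive, that of Dppa3 (0.53), which did not pass. The summed level of the 8 markers (of the values taken off the log scale) was 14673 to 15605 in wt/wt and 11613 to 13071 in lox/lox arrays. Of 16 fibroblast markers, which would show feeder cells, 10 lay above that median, and their sum was 4968 to 5398 in wt/wt and 5707 to 6214 in lox/lox arrays. Vim and Fn1 make up most of that sum, with changes of 0.24 and 0.075 that did not pass. Fbln1 was the 1 marker called (higher, 0.37). Dcn (below that median), Twist1 and Thy1 had changes of 0.21, 0.21 and 0.23 that did not pass. Col1a1 and Pdgfra had changes of -0.027 and 0.0072. The median of the list was 0.041, with 10 changes positive and 6 negative. At an unadjusted p under 0.05 in limma 4 of the 16 were higher and 0 lower, beside 1559 and 2020 of all 19938 genes. The sum of 9 trophectoderm markers was 589 to 656 in wt/wt and 533 to 556 in lox/lox arrays, and 1 of them was lower (Tfap2c, -0.87) and 1 higher (Ascl2, 0.55), with a list median of 0.038. Tfap2c had the highest wt/wt mean of the 9 (7.96) and so weighs most in that sum. The changes were positive in 5 of the 9 markers and negative in 4. The sum of 10 primitive endoderm markers was 428 to 518 in wt/wt and 429 to 442 in lox/lox arrays, with 1 lower (Lama1, -0.36) and 0 higher. Hnf4a and Gata4 had changes of 0.28 and 0.27 that did not pass. In this list 5 changes were positive and 5 negative, with a median of -0.025. The part of these shifts in the results below was not tested.

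A few replication genes were lower in lox/lox than in wt/wt cells, by 1.23- to 1.32-fold, and the others did not pass the test. Of the 56 genes, 6 (10.7%) were lower and 0 were higher at an adjusted p under 0.05 in limma, beside 3.61% lower and 2.55% higher among all genes tested. Among the genes above the array median, where all 56 lay, 5.93% were lower. The 6 were Cdc6 (licensing), Mcm4 (helicase ring), Cdc45 and Gins4 (helicase activation), Rfc3 (clamp loader) and Chaf1b (chromatin assembly), while polymerases and primase, nucleotide supply and fork protection held 0 called genes. In bulk RNA, fewer cells in S phase and less RNA per cell cannot be told apart. At an unadjusted p under 0.05 in limma, 15 were lower and 1 was higher. By that rule 10.1% of all genes were lower, and 1559 of the 19938 were higher. The sign was negative in 43 of the 56, against 52.5% of all genes, and the median change was -0.12 against -0.0079 for all genes. The 95% interval of every one of the 56 changes lay within 1.5-fold in either direction.

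**Figure D1:**
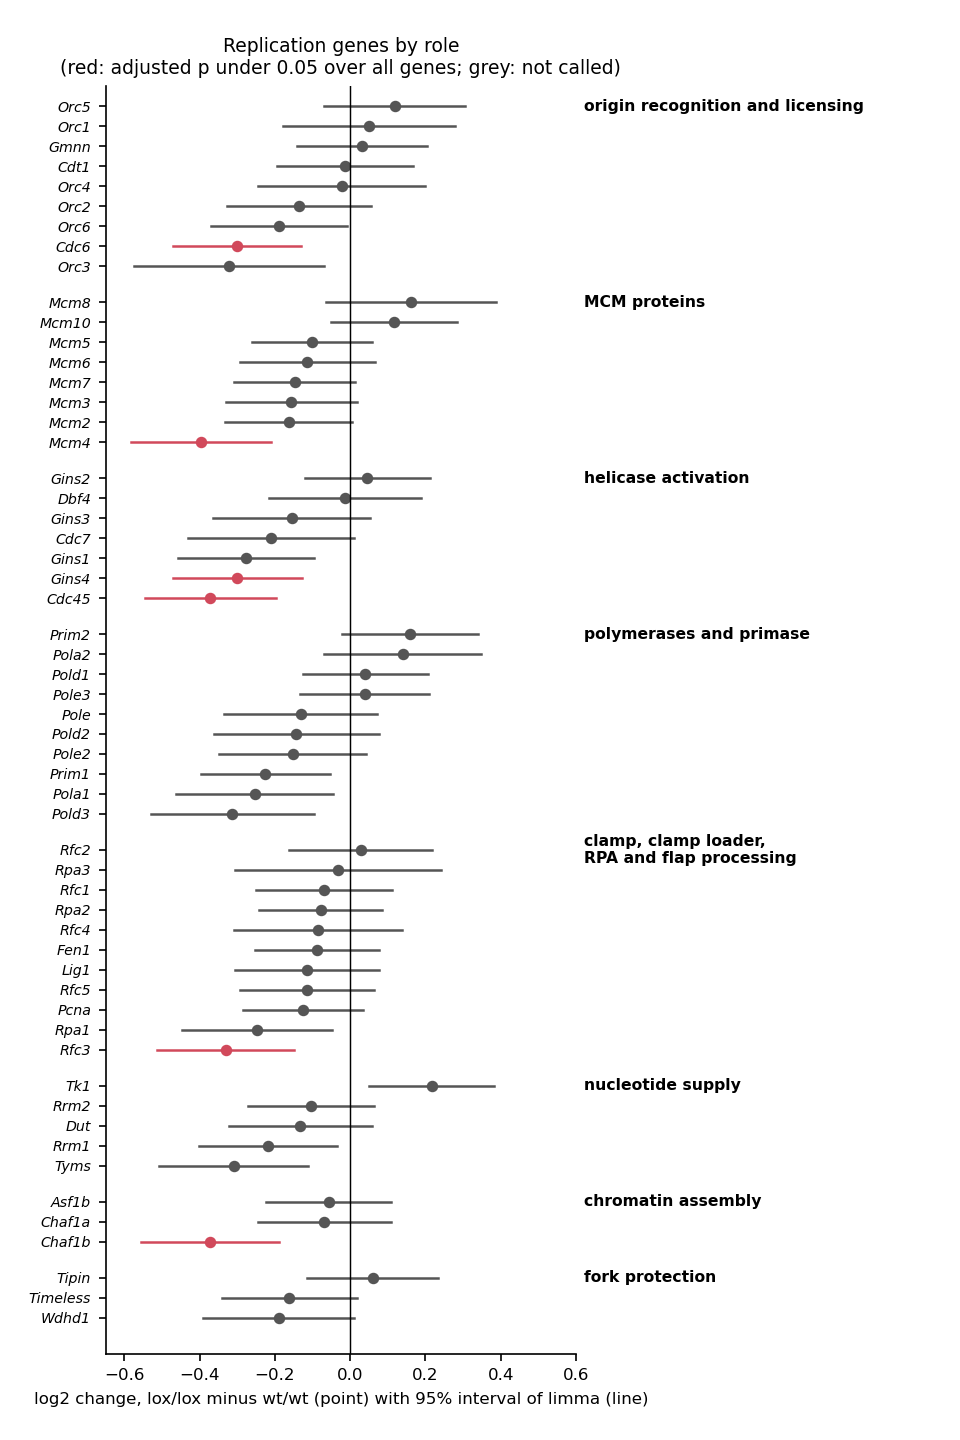
Log2 change from wt/wt to lox/lox cells (points, lox/lox minus wt/wt) with the 95% interval of limma (lines) for each of the 56 genes, sorted within their roles. The 6 red genes passed an adjusted p under 0.05 over all genes, and they lie between -0.40 and -0.30, while the grey ones lie between -0.32 and 0.22.

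In 21 genes (37.5%) all 3 lox/lox arrays lay below all 3 wt/wt arrays, which was so in 12.7% of all genes, and in 3 genes (5.36%) they all lay above, against 10.1% of all genes. All 56 genes lay above the array median in wt/wt cells. With dim genes removed from the test, 8 of the 56 were lower against 7.19% of the 11400 genes left, the additions being Gins1 and Tyms. With every probe set of the array in the test, and so more tests to adjust for, 0 of the 56 passed. In that test 1.38% of the 35556 probe sets were lower. Of the 56, Cdc45 came nearest (adjusted p = 0.0626 in limma) and then Mcm4 (adjusted p = 0.0717 in limma).

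The calls rest on small changes and moved with single arrays. Without wt/wt replicate 1 the number of lower genes was 2, without wt/wt replicate 2 or 3 it was 1, without lox/lox replicate 1 it was 1, without lox/lox replicate 2 it was 0, and without lox/lox replicate 3 it was 8. In the same order, 3.25%, 2.31%, 1.97%, 2.38%, 1.71% and 3.44% of all genes were lower. With every array the share was 3.61%. The median change stayed between -0.16 and -0.089 in these 6 fits.

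Since the sign of the change was negative in most of the 56 genes, their promoters were read for the letters of E2F sites. RefSeq promoter windows (assembly GRCm38.p6, 250 bases before to 50 after a start site) were matched for 47 of the 56 genes. Gmnn, Mcm4, Gins1, Gins2, Gins4, Prim2, Pole, Rfc2 and Tipin had no entry. An E2F match was any of TTTGGCGC, TTTCGCGC, TTTCCCGC and TTTGCCGC on either strand, and matches may overlap. The first 4 windows below belong to the called genes with the smallest p that have an entry, and the last, chosen after the matches were seen, is that of Mcm6, which holds the most. Each is written in the direction of its gene, and capitals mark E2F matches.
Cdc45: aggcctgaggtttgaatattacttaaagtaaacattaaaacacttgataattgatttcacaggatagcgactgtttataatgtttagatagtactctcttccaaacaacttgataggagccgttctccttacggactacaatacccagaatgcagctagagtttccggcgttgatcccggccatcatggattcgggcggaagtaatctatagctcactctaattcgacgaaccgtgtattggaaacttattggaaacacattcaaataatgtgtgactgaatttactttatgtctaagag
Chaf1b: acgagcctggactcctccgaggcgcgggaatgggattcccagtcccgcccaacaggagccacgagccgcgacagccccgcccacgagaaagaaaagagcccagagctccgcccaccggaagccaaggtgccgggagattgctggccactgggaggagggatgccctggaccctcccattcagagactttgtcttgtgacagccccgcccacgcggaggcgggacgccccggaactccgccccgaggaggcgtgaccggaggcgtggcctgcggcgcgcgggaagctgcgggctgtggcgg
Rfc3: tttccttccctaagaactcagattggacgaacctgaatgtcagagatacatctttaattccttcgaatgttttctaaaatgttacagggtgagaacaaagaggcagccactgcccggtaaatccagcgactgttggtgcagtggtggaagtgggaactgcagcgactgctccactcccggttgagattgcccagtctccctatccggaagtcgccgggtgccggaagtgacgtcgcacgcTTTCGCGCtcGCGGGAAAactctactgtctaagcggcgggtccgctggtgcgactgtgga
Cdc6: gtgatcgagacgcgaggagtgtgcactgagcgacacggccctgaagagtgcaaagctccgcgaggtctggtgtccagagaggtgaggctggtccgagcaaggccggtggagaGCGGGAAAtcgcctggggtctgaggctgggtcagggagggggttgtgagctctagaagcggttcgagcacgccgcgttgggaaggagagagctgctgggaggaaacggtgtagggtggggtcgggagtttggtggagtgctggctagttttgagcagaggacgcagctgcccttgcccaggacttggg
Mcm6: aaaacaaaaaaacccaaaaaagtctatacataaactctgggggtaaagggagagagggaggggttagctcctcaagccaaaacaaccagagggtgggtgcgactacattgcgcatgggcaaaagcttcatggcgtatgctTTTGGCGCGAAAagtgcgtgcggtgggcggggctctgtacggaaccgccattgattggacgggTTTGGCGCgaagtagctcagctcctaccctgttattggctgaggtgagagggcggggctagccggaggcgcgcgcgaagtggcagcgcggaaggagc

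The window of Cdc45 is chr16:18811923-18812222 on the minus strand, that of Chaf1b chr16:93883651-93883950 on the plus strand, that of Rfc3 chr5:151651159-151651458 on the minus strand, that of Cdc6 chr11:98907901-98908200 on the plus strand and that of Mcm6 chr1:128359656-128359955 on the minus strand. Rfc3 has a match from position -10 and another from position 1, the start site itself, on opposite strands. Cdc6 has 1 match on the reverse strand from position -138, and Mcm6 has 3, from positions -110, -106 and -47, the first 2 of which overlap on opposite strands. The windows of Cdc45 and Chaf1b hold none of these letters.

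E2F letters were found in the windows of 16 of the 47 genes (34.0%), against 541 of the 15563 tested genes with a window (3.48%) and 2.26% of all 32851 windows in the table. The 16 include Mcm3, Mcm5, Mcm6, Mcm7 and Mcm8, the licensing genes Orc1, Orc3, Cdc6 and Cdt1, the polymerase genes Pola1, Pold1, Pold3 and Pole2, and Gins3, Lig1 and Rfc3. CCAAT, on either strand, was found for 55.3% of the 47 genes, 41.7% of tested genes and 37.4% of all windows. TTTGAA, a letter pattern known from mitotic promoters, was found for 17.0% of the 47 genes, 17.3% of tested genes and 17.9% of all windows. Counted by gene, the whole table held E2F letters for 2.6%, CCAAT for 41.1% and TTTGAA for 20.2%. The windows of the 47 genes were also richer in CpG, with a median of 23.5 per window against 15 for tested genes. Among the 16 genes with E2F letters 2 were called lower and the median change was -0.15, and among the 31 without, 2 were called and the median was -0.11. Whether that differs was not tested.

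Of the 9 licensing genes, Cdc6 was lower and 0 were higher, with changes of both signs and a median of -0.023. Cdc6, the ATPase that loads the helicase ring with the origin recognition complex, stood at 8.40, 8.45 and 8.50 on the wt/wt arrays and at 8.20, 8.17 and 8.08 on the lox/lox arrays. The groups did not overlap, and replicate 3 of the lox/lox cells was the lowest of all. Cdc6 was 1.23-fold lower (log2 change -0.30, SE 0.076, adjusted p = 0.0458 in limma), and its call was lost in each of the 6 fits that drop an array, the highest adjusted p being 0.176 without wt/wt replicate 3. It was lost under quantile normalization too (adjusted p = 0.0905) and cyclic loess (adjusted p = 0.0754).

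The subunits of the origin recognition complex gave changes from -0.32 to 0.12, and 0 of 6 passed in limma. Orc3 and Orc6 were the 2 with an unadjusted p under 0.05 in limma, a rule by which 10.1% of all genes were lower. Orc3 stood at 8.58, 8.77 and 8.65 on the wt/wt arrays and at 8.15, 8.29 and 8.59 on the lox/lox arrays. Only its lox/lox replicate 3 reached the wt/wt range, and the change of -0.32 (95% interval -0.58 to -0.068) did not pass (adjusted p = 0.154 in limma). Without that array Orc3 passed, at -0.45 (adjusted p = 0.033 in limma). Orc6 had a change of -0.19 with all lox/lox arrays below the wt/wt arrays, and Orc2 one of -0.14. Orc1, Orc4 and Orc5 lay at 0.050, -0.023 and 0.12. Cdt1, which brings the helicase ring to origins, and Gmnn, the geminin that blocks Cdt1, had changes of -0.014 (95% interval -0.19 to 0.17) and 0.032 (95% interval -0.14 to 0.20).

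The 6 subunits of the helicase ring all had negative changes, from -0.40 to -0.10, and 1 of them passed. Mcm4 stood at 9.92, 9.89 and 9.96 on the wt/wt arrays and at 9.47, 9.44 and 9.66 on the lox/lox arrays. All 3 lox/lox arrays were below the wt/wt arrays, and replicate 3 was the nearest to them. Mcm4 was 1.32-fold lower, the largest change of the 56 genes (log2 change -0.40, SE 0.084, adjusted p = 0.0204 in limma). It passed in 3 of the 6 fits that drop an array, and its adjusted p reached 0.102 without lox/lox replicate 2.

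The other subunits had smaller changes and did not pass. Mcm2 stood at 10.68, 10.65 and 10.67 on the wt/wt arrays and at 10.53, 10.42 and 10.56 on the lox/lox arrays, so that the groups did not overlap, with a change of -0.16 (95% interval -0.33 to 0.0054, adjusted p = 0.297 in limma). Mcm3, Mcm5 and Mcm7 had changes of -0.16, -0.10 and -0.15, each with every lox/lox array below every wt/wt array. Mcm6 had a change of -0.11, with lox/lox replicate 3 inside the wt/wt range. The sign of these 6 changes was negative in all 17 alternative settings. Several of these settings alter only the test, so the sign was fixed in them. Whether Mcm4 changed more than its partners in the ring was not tested.

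Mcm8 and Mcm10 carry the MCM name but are no part of the ring. Mcm8, a helicase of recombination repair, had a change of 0.16 (95% interval -0.064 to 0.39). Mcm10, an initiation factor, stood at 8.64, 8.68 and 8.68 on the wt/wt arrays and at 8.73, 8.75 and 8.87 on the lox/lox arrays. Its lox/lox arrays all lay above the wt/wt arrays, and the change of 0.12 did not pass (adjusted p = 0.489 in limma).

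Helicase activation had the lowest median of the roles, -0.21, with 2 of 7 genes lower and 0 higher. Cdc45, which joins the ring when an origin fires, stood at 8.70, 8.84 and 8.77 on the wt/wt arrays and at 8.45, 8.33 and 8.42 on the lox/lox arrays. The groups did not overlap. Cdc45 was 1.29-fold lower (log2 change -0.37, SE 0.078, adjusted p = 0.0197 in limma), the smallest p of the 56 genes. It passed in 3 of the 6 fits that drop an array, and its adjusted p reached 0.0979 without lox/lox replicate 2.

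Of the 4 GINS subunits, Gins4 passed. It stood at 8.85, 8.90 and 8.90 on the wt/wt arrays and at 8.58, 8.50 and 8.67 on the lox/lox arrays, with no overlap. Gins4 was 1.23-fold lower (log2 change -0.30, SE 0.077, adjusted p = 0.0484 in limma), and passed in 1 of the 6 such fits, its adjusted p reaching 0.192 when lox/lox replicate 2 was dropped. Median centring also ended its call (adjusted p = 0.0614). Gins1 stood at 8.71, 8.71 and 8.72 on the wt/wt arrays and at 8.43, 8.33 and 8.56 on the lox/lox arrays. Its wt/wt arrays were nearly identical and its lox/lox arrays all lower, but the change of -0.28 did not pass (adjusted p = 0.0814 in limma). It passed without lox/lox replicate 3 (adjusted p = 0.0485 in limma). Gins2 and Gins3 had changes of 0.045 and -0.16, with overlapping arrays.

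The kinase that fires licensed origins has a catalytic subunit, Cdc7, and an activator, Dbf4. Cdc7 had a change of -0.21 (95% interval -0.43 to 0.0088, adjusted p = 0.302 in limma), and its lox/lox replicate 3 reached the wt/wt range. Dbf4 had a change of -0.014 (95% interval -0.22 to 0.19).

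**Figure D2:**
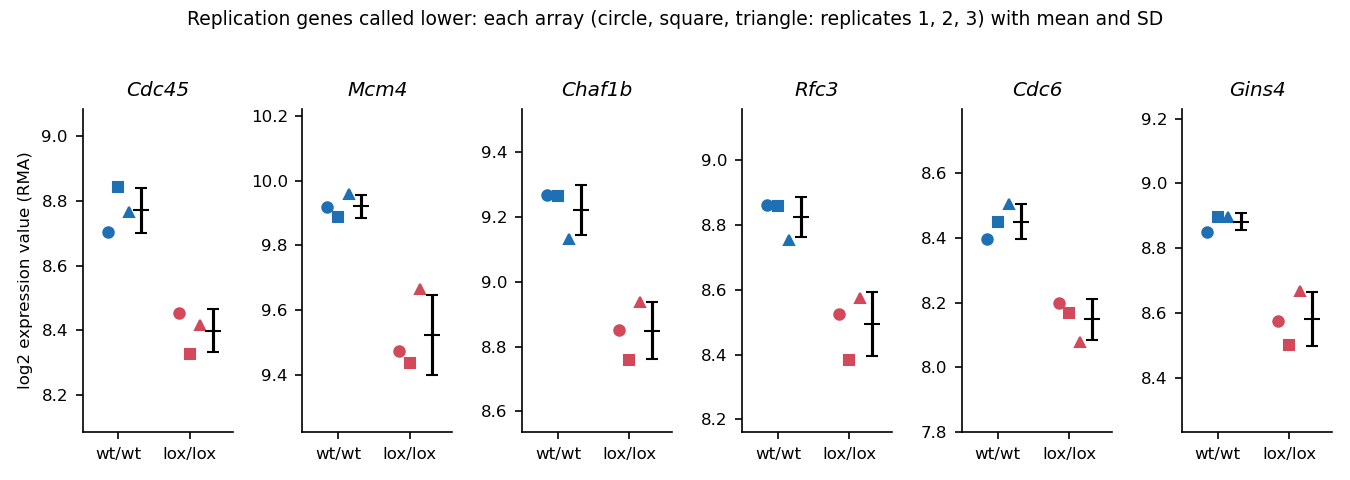
Log2 expression values of the 6 genes called lower on each array (blue wt/wt, red lox/lox; circle, square and triangle are replicates 1, 2 and 3), with the mean and SD of each genotype in black; every panel spans 1 log2 unit and none starts at 0. In each gene the 3 lox/lox arrays lie below the 3 wt/wt arrays, and lox/lox replicate 3 is the highest lox/lox array in 4 of the 6, the exceptions being Cdc45 and Cdc6.

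Among the 10 polymerase and primase genes 0 passed in limma. At an unadjusted p under 0.05 in limma 3 were lower, beside 10.1% of all genes. The change was negative in 6 and positive in 4, with a median of -0.14. Pold3, an accessory subunit of polymerase delta, stood at 8.40, 8.52 and 8.29 on the wt/wt arrays and at 8.02, 8.002 and 8.26 on the lox/lox arrays. The groups did not overlap, by a narrow margin at lox/lox replicate 3, and the change was -0.31 (95% interval -0.53 to -0.10, adjusted p = 0.100 in limma). It passed without lox/lox replicate 3 (-0.40, adjusted p = 0.0485 in limma).

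Polymerase alpha and primase form 1 complex that lays down primers, and its subunits gave changes of either sign. Prim1, the catalytic primase subunit, stood at 9.37, 9.36 and 9.24 on the wt/wt arrays and at 9.06, 9.08 and 9.16 on the lox/lox arrays. Every lox/lox array was lower, and the change was -0.23 (95% interval -0.40 to -0.053, adjusted p = 0.140 in limma). Prim2, its large partner, stood at 7.497, 7.37 and 7.42 on the wt/wt arrays and at 7.56, 7.52 and 7.69 on the lox/lox arrays. Every lox/lox array was higher here, with a change of 0.16 (95% interval -0.021 to 0.34, adjusted p = 0.350 in limma). The catalytic Pola1 and its accessory subunit Pola2 had changes of -0.25 (95% interval -0.46 to -0.045) and 0.14 (95% interval -0.069 to 0.35). Neither of these pairs was tested for a difference between its subunits.

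Among the other polymerase subunits, Pold1, which copies the lagging strand, had a change of 0.040 and Pold2 one of -0.14. Pole, the catalytic subunit of the leading-strand polymerase, Pole2 and Pole3 had changes of -0.13, -0.15 and 0.038, all with overlapping arrays.

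Of the 11 genes of the clamp, the clamp loader, single-strand binding and flap processing, 10 had a negative change and 1 passed, with a median of -0.089. Rfc3, a subunit of the clamp loader, stood at 8.86, 8.86 and 8.76 on the wt/wt arrays and at 8.53, 8.38 and 8.57 on the lox/lox arrays. The groups did not overlap, and Rfc3 was 1.26-fold lower (log2 change -0.33, SE 0.082, adjusted p = 0.0413 in limma). It passed in 1 of the 6 fits that drop an array, the highest adjusted p being 0.173 without lox/lox replicate 2. The other clamp loader subunits, Rfc1, Rfc2, Rfc4 and Rfc5, had changes of -0.069, 0.027, -0.085 and -0.11.

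Pcna, the sliding clamp that the loader places, stood at 11.47, 11.53 and 11.47 on the wt/wt arrays and at 11.34, 11.37 and 11.39 on the lox/lox arrays. The lox/lox arrays were all lower by a small step, with a change of -0.12 (95% interval -0.28 to 0.035), and a second probe set gave -0.12. Rpa1, the largest subunit of the single-strand binding complex, stood at 9.43, 9.53 and 9.56 on the wt/wt arrays and at 9.18, 9.18 and 9.42 on the lox/lox arrays. Its groups did not overlap, and the change of -0.25 did not pass (adjusted p = 0.163 in limma). Rpa2 and Rpa3 had changes of -0.079 and -0.033, and a second probe set of Rpa3 gave -0.082. Lig1, the ligase that seals Okazaki fragments, and Fen1, which trims their flaps, had changes of -0.11 and -0.089.

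The 5 genes of nucleotide supply held the highest change of the 56, that of Tk1, and 0 of them passed in limma. At an unadjusted p under 0.05 in limma 2 were lower and 1 higher, beside 2020 lower and 1559 higher of all 19938 genes. Tyms, which makes thymidylate, stood at 9.33, 9.58 and 9.33 on the wt/wt arrays and at 9.16, 9.07 and 9.09 on the lox/lox arrays. All lox/lox arrays were lower, and the change of -0.31 (95% interval -0.51 to -0.11) did not pass (adjusted p = 0.0777 in limma). Tk1, the kinase that salvages thymidine, stood at 8.75, 8.68 and 8.79 on the wt/wt arrays and at 8.94, 8.99 and 8.94 on the lox/lox arrays. All lox/lox arrays were higher, at 1.16-fold (log2 change 0.22, 95% interval 0.051 to 0.38), and this did not pass either (adjusted p = 0.140 in limma). A second probe set of Tk1 gave 0.013, and the mean of both gave 0.11, below the 0.16 of Mcm8. The ribonucleotide reductase genes Rrm1 and Rrm2 had changes of -0.22 and -0.10, and Dut, which removes dUTP, -0.13.

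Chromatin assembly behind the fork was represented by 3 genes, of which 1 was lower. Chaf1b, a subunit of the chromatin assembly factor, stood at 9.27, 9.26 and 9.13 on the wt/wt arrays and at 8.85, 8.76 and 8.94 on the lox/lox arrays. The groups did not overlap, and Chaf1b was 1.29-fold lower (log2 change -0.37, SE 0.082, adjusted p = 0.0244 in limma). It passed in 2 of the 6 fits that drop an array, the highest adjusted p being 0.117 without lox/lox replicate 2. Its partner Chaf1a had a change of -0.068 (95% interval -0.25 to 0.11), and Asf1b, a histone chaperone that hands histones to it, -0.057 (95% interval -0.22 to 0.11).

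The 3 genes of fork protection did not pass. Wdhd1, which links the helicase to polymerase alpha and takes part in cohesion, stood at 8.64, 8.66 and 8.55 on the wt/wt arrays and at 8.41, 8.28 and 8.58 on the lox/lox arrays. Its lox/lox replicate 3 lay within the wt/wt range, and the change was -0.19 (95% interval -0.39 to 0.011). Timeless and Tipin form 1 complex, and had changes of -0.16 (95% interval -0.34 to 0.017) and 0.060 (95% interval -0.11 to 0.23). Both intervals hold 0.

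The shift differed between the lox/lox arrays. The median distance of the 56 genes from their wt/wt mean was -0.15 in lox/lox replicates 1 and 2 and -0.057 in replicate 3, while the same median over all genes was -0.0019, -0.011 and -0.013. In 46, 48 and 35 of the 56 genes the array lay below the wt/wt mean. Replicate 3 was the highest of the lox/lox arrays in 45 of the 56 genes, and was so in 40.4% of all genes. Among wt/wt arrays the medians were -0.0003, 0.024 and -0.018, and replicate 2 was the highest in 29 of the 56 and in 32.7% of all genes. ES cell markers had medians of -0.42, -0.35 and -0.19 on the lox/lox arrays, so replicate 3 lay nearest to wt/wt there too, while Rad21 was 6.14 on it. Leaving out lox/lox replicate 3 moved the median of the 56 genes from -0.12 to -0.16 and the calls from 6 to 8.

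**Figure D3:**
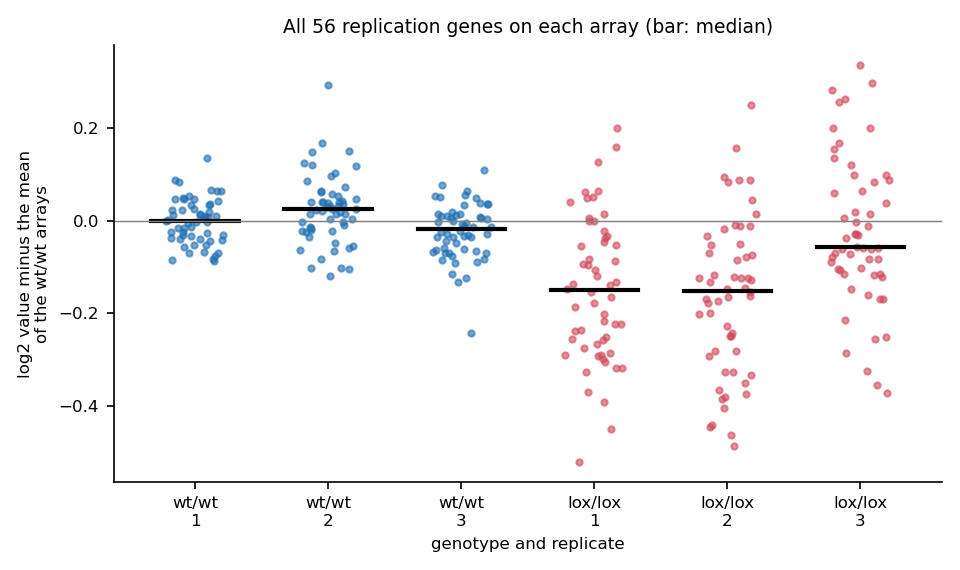
Distance of each of the 56 genes (points) from its own wt/wt mean, in log2 units, on each of the 6 arrays, with the median as a bar. The medians lie at -0.0003, 0.024 and -0.018 on the wt/wt arrays and at -0.15, -0.15 and -0.057 on lox/lox replicates 1, 2 and 3.

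Other genes of the same pathway were read from longer lists. Of 29 measured further genes of initiation and the fork, 5 were lower and 0 higher, with a median of -0.10, beside 3.61% lower among all genes tested and 5.93% among those above the array median, where all 29 lay. Ticrr, the partner of Topbp1 that helps load Cdc45, stood at 8.33, 8.68 and 8.68 on the wt/wt arrays and at 7.95, 7.69 and 8.05 on the lox/lox arrays. All lox/lox arrays were lower, at 1.59-fold (log2 change -0.67, SE 0.12, adjusted p = 0.00977 in limma), more than in any of the 56 genes by value. Ticrr passed in 5 of the 6 fits that drop an array, the exception being that without wt/wt replicate 3 (adjusted p = 0.0517), and did not pass with every probe set in the test (adjusted p = 0.0660).

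The other 4 were Dna2, a nuclease and helicase that trims flaps, Pole4, a small subunit of polymerase epsilon, Chtf18, which leads an alternative clamp loader tied to cohesion, and Donson, which helps assemble the helicase. Their changes were -0.44, -0.43, -0.38 and -0.43, with adjusted p of 0.0112, 0.0137, 0.0140 and 0.0220 in limma. Of the 6 fits that drop an array, Dna2 and Pole4 passed in 5, Chtf18 in 4 and Donson in 2. Without lox/lox replicate 2 none of these 4 genes passed, at adjusted p of 0.0595, 0.0690, 0.0682 and 0.106. With every probe set in the test Pole4 and Donson did not pass (adjusted p = 0.0556 and 0.0822 in limma).

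Of 17 measured further genes of nucleotide synthesis, 2 were lower and 0 higher, with a median of -0.021, and all 17 lay above the array median, where 5.93% of genes were lower. Umps, which makes UMP, was 1.45-fold lower (log2 change -0.53, SE 0.093, adjusted p = 0.00754 in limma) and passed in all 6 fits that drop an array. Dck, which salvages deoxycytidine, was 1.29-fold lower (adjusted p = 0.0412 in limma) and passed in 2 of them, the highest adjusted p being 0.172 without lox/lox replicate 2, and it did not pass with every probe set in the test (adjusted p = 0.121).

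Of 22 genes of E2F, RB and the G1/S kinases 0 passed in limma, with 8 lower and 1 higher by unadjusted p under 0.05, and their median was -0.099. Dtl, which marks Cdt1 for destruction in S phase, came nearest, at -0.34 (95% interval -0.55 to -0.14, adjusted p = 0.0569 in limma), and passed without lox/lox replicate 3 (adjusted p = 0.0187). Of 26 measured genes of G2 and mitosis 0 passed in limma, with 2 lower and 1 higher at an unadjusted p under 0.05, and their median was -0.075. Ccnb2, a mitotic cyclin, had the smallest p, with a change of -0.30 (adjusted p = 0.0647 in limma), and passed without lox/lox replicate 3 (adjusted p = 0.0469). By the unadjusted rule, 10.1% of all genes were lower and 1559 of the 19938 were higher in limma. Whether replication genes moved more than mitotic genes was not tested.

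**Figure D4:**
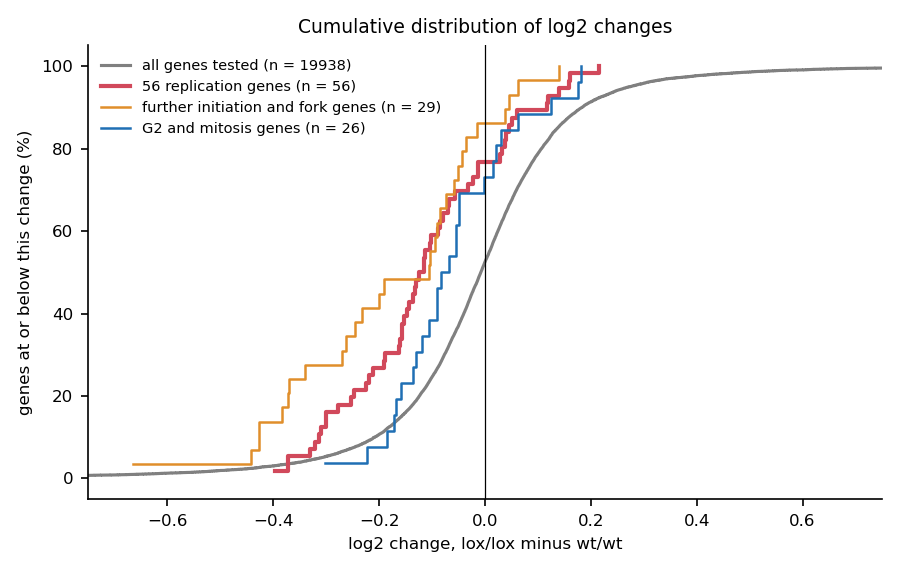
Share of genes (vertical axis, percent) at or below each log2 change from wt/wt to lox/lox cells (horizontal axis, cut at 0.75 on both sides) for all 19938 genes (grey), the 56 replication genes (red), 29 further initiation and fork genes (orange) and 26 genes of G2 and mitosis (blue). The medians are -0.0079, -0.12, -0.10 and -0.075.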

How the data were processed

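The authors deposited log2 values of 35556 probe sets on 6 Affymetrix Mouse Gene 1.0 ST arrays. The submitters' processing notes name RMA and affy, and the sources used here give neither versions nor options. RMA assumes like distributions on all arrays, so a fall of all RNA per cell cannot be seen, and it compresses changes of dim genes.

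Probe sets with a single platform symbol (21789) were kept, and the one with the highest mean stood for each gene (19938 genes, 999 of them with several; of the 56, 3). No detection calls were used. Genotypes, 3 samples each, taken from the sample titles, were compared by lmFit and eBayes of limma (version 3.58.1, under R version 4.3.3), without covariates and with Benjamini-Hochberg adjustment over all genes and a threshold of 0.05. The code was tested on simulated arrays. The number of arrays limits the precision.

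The genes, roles and further lists were chosen with earlier results of these data known. Described in detail were the called genes, the 2 genes with the smallest p per role, and the called genes (or the smallest p) of the further replication lists; the gene with the smallest change per role and the remaining genes were named to account for all 56, with array values of Gins1, Mcm10, Prim2 and Pcna added after the values were seen. Further genes not named from a probe set of their own were not analysed here. Promoter windows came from RefSeq. Alternatives covered normalization, dim genes, probe set choice, variance models, a replicate block, arrays left out and a stricter threshold.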

Additional observations from a re-analysis of the deposited data

How the results depend on the processing

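Against 6 lower genes, the count was 0 with all probe sets tested, 11 with eBayes trend and robust, 2 with the replicate block, 1 without both wt/wt replicate 2 and lox/lox replicate 3, 0 at an adjusted p under 0.01, and 0 to 8 without 1 array. It was 5 to 9 in the 6 other settings. No gene of the 56 was higher in any of the 17 settings. Their median change ran from -0.16 to -0.089 without 1 array and was -0.092, -0.14 and -0.10 under quantile normalization, median centring and cyclic loess. Over all genes 720 were lower and 508 higher. Both together numbered 808 with all probe sets, 697 without both named arrays, 553 at 0.01, 1086 with the replicate block, and 626 to 1132 without 1 array. They numbered 1425 with dim genes removed, 1523 with trend and robust and 1717 with array weights. The calls kept in the block were Cdc45 and Mcm4, and of the further genes called Dck lost its call there (adjusted p = 0.0674). Deviations of same-numbered samples correlated at 0.10, -0.23 and -0.10. The highest correlations joined unlike numbers, wt/wt replicate 2 with lox/lox replicate 3 (0.32) and wt/wt replicate 1 with lox/lox replicate 2 (0.20). The numbers are not known to pair samples. The cause of these moves was not tested, beyond fewer arrays or more tests.

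Signs turned only in genes near 0, none of them called. Under quantile normalization Orc4 was 0.00010, Cdt1 0.013 and Dbf4 0.012, and under cyclic loess Cdt1 was 0.0060 and Dbf4 0.0088. With array weights Rfc2 was -0.0073 and Rpa3 0.055. Over the fits that drop 1 array, or both named arrays, Orc1 ran from -0.066 to 0.12, Orc4 from -0.12 to 0.074, Cdt1 from -0.064 to 0.030, Gmnn from -0.029 to 0.074, Dbf4 from -0.065 to 0.061, Pole3 from -0.0023 to 0.074, Rfc2 from -0.069 to 0.084, Rfc4 from -0.19 to 0.0011 and Rpa3 from -0.15 to 0.13.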

Other observations

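Mcm4, Cdc45 and Chaf1b, 3 of the 6 genes called lower, lie on chromosome 16, which holds 4 of the 56 genes. The remaining one, the clamp loader gene Rfc4, had a change of -0.085. The 346 chromosome 16 genes above the array median had a median change of -0.030, and 8.09% of them were lower, against -0.013 and 5.93% of such genes over all chromosomes. Without the 56 genes 25 of 342 (7.31%) were lower on chromosome 16, against 5.91% over all chromosomes. The other called genes were 1 of 10 on chromosome 5, 1 of 7 on chromosome 8 and 1 of 4 on chromosome 11. This placement was noticed after the values were seen and was not tested.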
